A study of Mus musculus with 18 samples.

Results

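The 8 genes described here encode inhibitors of the cyclin-dependent kinases. The Cip/Kip family gave Cdkn1a (ENSMUSG00000023067), Cdkn1b (ENSMUSG00000003031) and Cdkn1c (ENSMUSG00000037664). The INK4 family gave Cdkn2a (ENSMUSG00000044303), Cdkn2b (ENSMUSG00000073802), Cdkn2c (ENSMUSG00000028551) and Cdkn2d (ENSMUSG00000066860), and Cdkn3 (ENSMUSG00000037628) stands apart from both. They were taken by symbol from a table of 16383 genes, and all 8 were listed. The table holds 18 RNA-seq libraries of 6 mouse pancreatic ductal adenocarcinoma (PDAC) lines, grown from spontaneous metastases and infected with lentivirus carrying a hairpin against Gstt1, a glutathione S-transferase, or a non-targeting (NT) hairpin. The question of the study was how knockdown of Gstt1 alters expression in lung and liver metastatic cells.

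The groups were Gstt1 shRNA 1 (6 libraries), Gstt1 shRNA 2 (4 libraries) and NT control (8 libraries). Lung metastases gave the lines 42-3 and 6-2, and liver metastases gave 42-2, G45-2, 6-3 and 13-2. A culture set is an NT control with its knockdown libraries from the same line, and there were 8 sets, since 42-3 and 42-2 each had a first set with shRNA 1 and a second with shRNA 2. G45-2 and 6-3 had both hairpins against 1 NT control, and 6-2 and 13-2 had shRNA 1 only. In 6-3 and 13-2 the library codes differ between knockdown and NT control, so this difference cannot be told apart there from that of the hairpins. All cells of all groups were infected with polybrene, selected in puromycin for 48 h and collected after a single split. By genotype label, the lines other than 13-2 carry a floxed SIRT6 allele pair (SIRT6F/F), and all lines carry p48-Cre or p48+, Cre expression from the pancreatic p48 promoter. NT controls and knockdowns of a line share these alleles. The labels do not say whether libraries of a line were separate cultures, so p-values here reflect only how these samples spread, and that spread could be technical.

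Cyclin-dependent kinases drive the cell cycle when bound to cyclins. INK4 proteins bind the monomeric kinases CDK4 and CDK6 and keep them from D-type cyclins, which holds the retinoblastoma protein in its growth-restraining form. Cip/Kip proteins bind cyclin-kinase complexes more broadly, chiefly those of CDK2, and the best known member, p21, is induced on DNA damage. In PDAC the CDKN2A locus is among the genes most often inactivated.

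Levels are given in CPM, read counts scaled to the size of the library, which are not divided by transcript length, so that only values of the same gene can be set against each other. Library depth was 8411436 to 25552912 reads, and 3 reads stood for 0.117 to 0.357 CPM. Gstt1 was at 0.0687 to 23.9 CPM in the 10 knockdown libraries and 0.616 to 52.5 CPM in the 8 NT controls, and it was lower under knockdown in 8 of 8 sets. Relative to the NT control it was at 0.613% to 0.938% in the lung sets and 1.16% in 13-2. With shRNA 1 and shRNA 2 it was at 54.5% and 11.8% in G45-2 and at 75.4% and 0.982% in 6-3. The 42-2 NT controls held only 2.67 and 0.616 CPM (54 and 8 reads), against 5 reads and 1 read in the knockdowns. Whether the inhibitor levels followed the Gstt1 that remained was not tested. Some sets pair libraries that do not share sex-linked transcripts. The 5 examined were Xist, the X-inactivation RNA, and from the Y chromosome Uty, Kdm5d, Eif2s3y and Ddx3y, each counted as differing where 1 library had 10 CPM or more and the other had 10-fold less or lower still. At least 2 of the 5 differed between knockdown and NT control in both 42-3 sets and in 6-2, and 1 in G45-2. Ddx3y was at 0, 0.119 and 1.075 CPM in the knockdowns of the first 42-3 set, the second 42-3 set and 6-2, against 222, 98.3 and 216 CPM in their NT controls. The NT controls of the first and second 42-2 sets differed in Xist, at 0.0494 and 41.7 CPM. The 3 sets are all of the lung sets, and the 42-2 first and 13-2 sets join them when Cdkn2a and Cdkn2b are counted among the transcripts. In the 3 lung sets knockdown and NT control may not be the same line despite their labels, and a difference between lines cannot be told apart there from one between hairpins. In the 42-2 first and 13-2 sets 0 of the 5 sex-linked transcripts differed by this rule, and only Cdkn2a and Cdkn2b placed them there. Whether the libraries of those sets are of 1 line was not tested. The knockdown change of each inhibitor is therefore also given without the 3 lung sets, and without all 5, a rule that itself uses these genes. The gene lists are given without them in a paragraph of their own, and the separate hairpin changes over all sets only. The 10 epithelial markers summed to 265 to 7726 CPM in knockdowns (median 4248) and 403 to 14726 CPM in NT controls (median 9990). The 9 fibroblast markers listed of 11 summed to 68.0 to 7699 CPM in knockdowns (median 729) and 74.3 to 3483 CPM in NT controls (median 244). Col3a1 alone reached 6083 CPM in a knockdown and 2681 CPM in an NT control. Col1a2, Dcn and Lum were each below 1 CPM in 9 of 10 knockdowns, and in 5, 7 and 8 of 8 NT controls. The fibroblast sum thus rested on a few of its genes. In the first 42-3 set the epithelial sum was 1446 CPM in the knockdown against 12248 CPM, and the fibroblast sum 4204 CPM against 126.7 CPM. In the second 42-3 set the sums were 4493 against 12714 CPM and 793.7 against 74.3 CPM, and in 6-2 they were 1742 against 14726 CPM and 164 against 134 CPM. In 13-2 both sums were higher, at 5604 against 2280 CPM and 665 against 353 CPM. In the first 42-2 set both were lower, at 2050 against 2473 CPM and 111.8 against 1360 CPM. The NT control of the second 42-2 set held 403 CPM epithelial and 3483 CPM fibroblast, so the NT controls of this line differed too. The part of these shifts in the inhibitor levels was not tested. Of the epithelial markers, Epcam and Muc1 were each below 1 CPM in 3 of 10 knockdowns and 0 of 8 NT controls, and Krt7 in 1 and 0. Cldn4, Cldn7 and Esrp1 were below 1 CPM in 6, 4 and 7 of 10 knockdowns and in 2, 3 and 6 of 8 NT controls. Cdh1, Krt8, Krt18 and Krt19 reached 1 CPM in every library. The 5 leukocyte markers listed of 7 summed to 20.6 to 226 CPM in knockdowns (median 104.4) and 95.2 to 875 CPM in NT controls (median 285). The marker with the highest level was Cd14, at 9.48 to 220.1 CPM in knockdowns and 79.7 to 858 CPM in NT controls (log2 change -2.35, SE 0.63, limma adjusted p = 0.121). Cd68 reached 1 CPM in every library, Itgam at most 23.0 CPM in a knockdown and 7.51 CPM in an NT control, and the pan-leukocyte Ptprc was below 1 CPM in 8 of 10 knockdowns and 8 of 8 NT controls. The 5 endothelial markers summed to 0.0391 to 11.8 CPM in knockdowns and 0.77 to 1.88 CPM in NT controls, with Cdh5 at up to 10.4 CPM in a knockdown and Kdr below 1 CPM in every library.

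Promoter sequence, from 250 bases before to 50 bases after the annotated transcription start, was taken from RefSeq on build GRCm38.p6 for 7 of the 8 genes, which gave 10 promoters. The 4 shown are those of Cdkn2a, with 2 starts, and Cdkn2b, whose levels varied together, and of Cdkn3. The sign of the Cdkn3 knockdown difference split by site, though no inhibitor passed a site test. Capitals mark matches on either strand to an E2F site (TTTCGCGC, TTTGGCGC, TTTCCCGC or TTTGCCGC), a GC box (GGGCGG), a cell cycle homology region, CHR (TTTGAA), or a CCAAT box, searched as its 5 letters. Sequences run 5′ to 3′ on the strand of the gene.
Cdkn2a distal start, chr4:89294570-89294869, minus strand: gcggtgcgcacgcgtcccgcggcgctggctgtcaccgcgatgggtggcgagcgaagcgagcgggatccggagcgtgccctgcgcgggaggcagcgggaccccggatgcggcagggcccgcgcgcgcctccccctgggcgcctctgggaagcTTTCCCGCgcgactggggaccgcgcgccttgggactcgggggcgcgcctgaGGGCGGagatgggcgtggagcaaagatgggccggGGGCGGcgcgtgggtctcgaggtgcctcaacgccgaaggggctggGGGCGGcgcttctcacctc
Cdkn2a proximal start, chr4:89282143-89282442, minus strand: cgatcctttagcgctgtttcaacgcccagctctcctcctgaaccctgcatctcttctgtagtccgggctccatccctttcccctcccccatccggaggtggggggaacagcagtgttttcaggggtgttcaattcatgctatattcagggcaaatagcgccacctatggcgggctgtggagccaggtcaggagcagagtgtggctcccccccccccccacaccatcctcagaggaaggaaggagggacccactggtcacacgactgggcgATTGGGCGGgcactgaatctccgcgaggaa
Cdkn2b, chr4:89310983-89311282, minus strand: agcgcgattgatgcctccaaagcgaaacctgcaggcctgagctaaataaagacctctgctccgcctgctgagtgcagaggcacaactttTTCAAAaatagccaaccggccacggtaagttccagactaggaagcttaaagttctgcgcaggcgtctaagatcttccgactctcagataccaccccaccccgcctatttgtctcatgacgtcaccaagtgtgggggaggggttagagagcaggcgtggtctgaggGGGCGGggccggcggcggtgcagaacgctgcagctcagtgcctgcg
Cdkn3, chr14:46760291-46760590, plus strand: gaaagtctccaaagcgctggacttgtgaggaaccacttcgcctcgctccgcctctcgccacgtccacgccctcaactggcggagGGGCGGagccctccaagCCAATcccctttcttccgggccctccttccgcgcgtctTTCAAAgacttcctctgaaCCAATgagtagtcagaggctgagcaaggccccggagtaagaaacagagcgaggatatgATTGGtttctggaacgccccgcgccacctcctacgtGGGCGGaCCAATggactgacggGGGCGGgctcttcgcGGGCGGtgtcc
The distal Cdkn2a window, on the side of the p19Arf transcript, held 1 E2F site, present in 2.26% of 32851 promoters of the same length, and 3 GC boxes (35.7%). The proximal window, on the side of the p16Ink4a transcript, held 1 GC box and 1 CCAAT box (37.4%), which overlap. Cdkn2b held 1 GC box and 1 CHR (17.9%), and Cdkn3 held 4 GC boxes, 4 CCAAT boxes and 1 CHR, with 1 of its GC boxes 1 base from a CCAAT box. These are matches of letters only.

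Across the 8 sets, none of the 8 inhibitors passed an adjusted p of 0.05 for knockdown against NT control in limma on log2(CPM + 1), where 0.0387% of 12931 genes passed, 0.00773% higher and 0.0309% lower. At an unadjusted p of 0.05, 6 of 8 were past the line, 3 higher and 3 lower, against 17.1% of all genes tested, 7.05% higher and 10.1% lower. That split of 911 higher and 1305 lower genes was 1122 higher and 1104 lower after quantile normalization. The edgeR test on recovered reads also called 0 of 8, with 4 at an unadjusted p of 0.05, 1 higher and 3 lower, against 6.9% of genes higher and 8.25% lower in that test. Without the 3 lung sets limma called 0 of 7 inhibitors tested, with 2 higher and 2 lower at an unadjusted p of 0.05, against 6.45% and 8.46% of genes. Without all 5 sets it called 0 of 6, with 2 higher and 2 lower, against 5.68% and 5.53%. With shRNA 1 alone limma called 0 of 8 (2 higher and 3 lower at an unadjusted p of 0.05, against 7.26% and 8.8% of genes, 16.1% in all) and with shRNA 2 alone 0 of 8 (1 higher and 3 lower, against 2.15% and 4.3%, 6.45% in all). The differences below are thus measured levels that did not pass over all genes. Cdkn2a and Cdkn2b were lower in 7 of 8 sets, Cdkn2c was higher in all 8, and Cdkn1a was higher in some lines and lower in others. For each of the 8 genes the knockdown and NT libraries overlapped, whereas 0.101% of genes tested lay wholly higher and 0.0851% wholly lower in knockdowns.

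**Figure D1:**
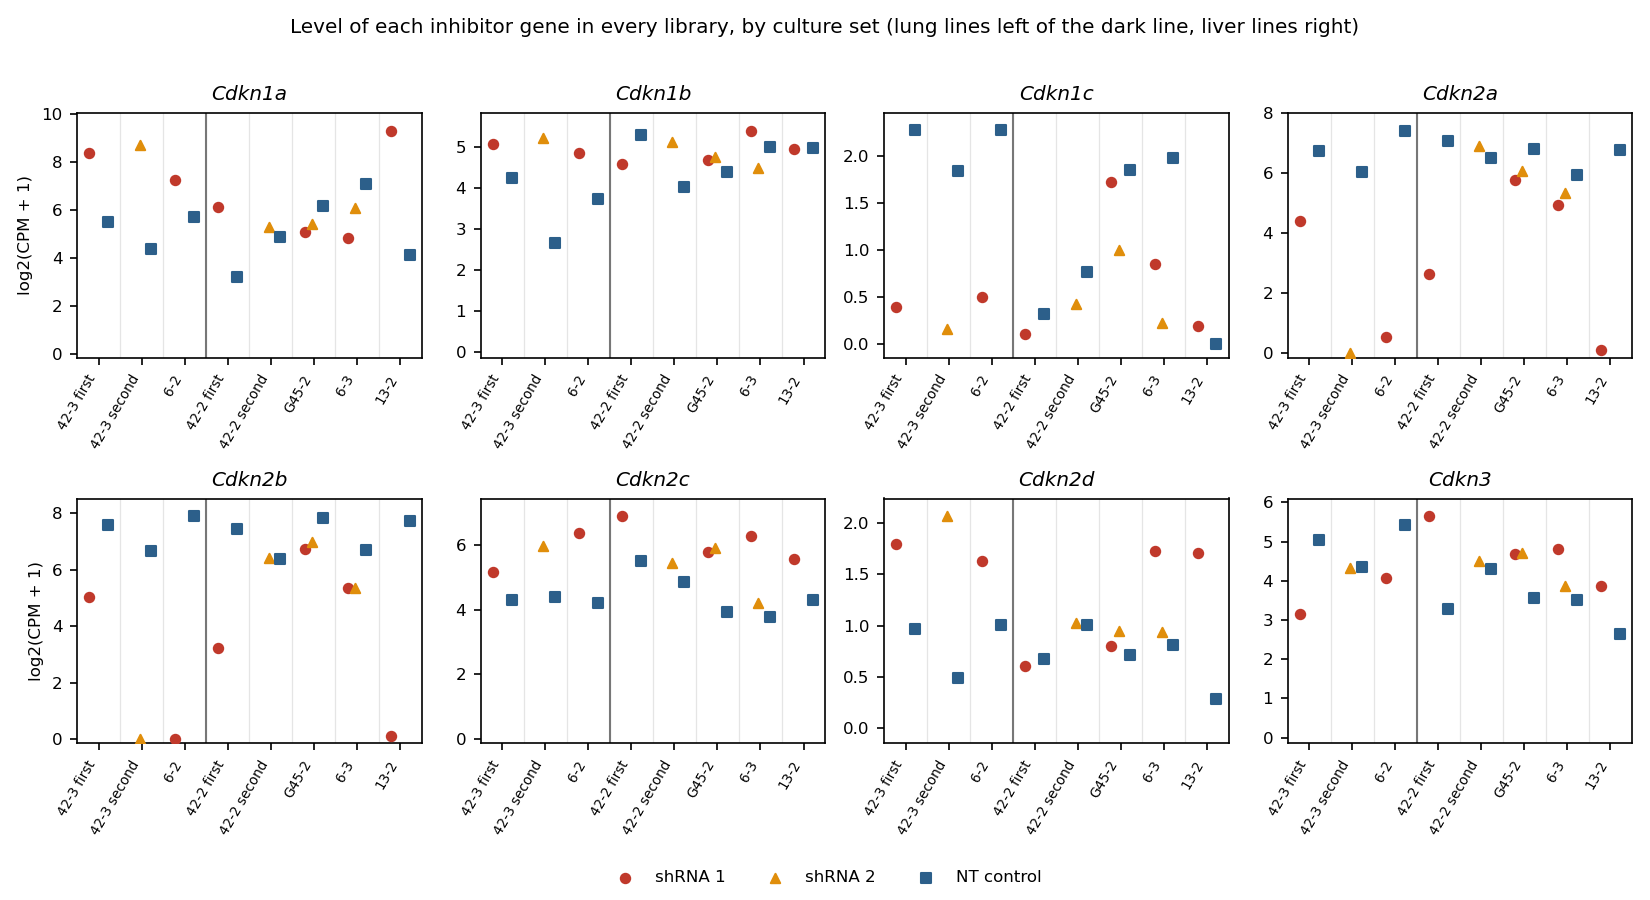
Each panel plots log2(CPM + 1) of 1 inhibitor gene in all 18 libraries, with the 8 culture sets along the horizontal axis, knockdowns (red circle shRNA 1, orange triangle shRNA 2) left of the NT control (blue square) within each set. Cdkn2a and Cdkn2b lie near 0 in 3 knockdown libraries and between 60.6 and 237.7 CPM in every NT control, while Cdkn2c is above its control in all 8 sets.

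Cdkn1a encodes p21, the Cip/Kip inhibitor that is induced on DNA damage. In the lung lines it was at 336 CPM with shRNA 1 in the first 42-3 set, 415 CPM with shRNA 2 in the second and 152 CPM with shRNA 1 in 6-2, against 44.5, 20.01 and 51.4 CPM in their NT controls. In the liver lines it was at 628 CPM with shRNA 1 in 13-2 against 16.4 CPM in its NT control, 69.8 against 8.25 CPM in the first 42-2 set, and 38.6 CPM with shRNA 2 against 28.5 CPM in the second 42-2 set. The other two liver lines went the other way. G45-2 held 33.2 CPM with shRNA 1 and 41.7 CPM with shRNA 2, against 72.1 CPM in its NT control. Line 6-3 held 27.4 and 67.4 CPM with shRNA 1 and shRNA 2, against 135.4 CPM in its NT control. Cdkn1a was thus higher under knockdown in 6 sets and lower in 2, and 4 knockdown libraries lay above every NT control, all from 42-3, 6-2 and 13-2. It averaged 181 ± 208 CPM in knockdowns (SD, n = 10) and 47.1 ± 41.4 CPM in NT controls (n = 8). The log2 change was 1.57 (SE 0.72, limma adjusted p = 0.290). Without the 3 lung sets it was 0.84 (adjusted p = 0.693), and without all 5 sets of differing transcripts it turned to -0.95 (adjusted p = 0.430). The NT controls of a line also differed, with 8.25 and 28.5 CPM in the first and second 42-2 sets.

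Mdm2, a ubiquitin ligase gene, was the gene whose log2(CPM + 1) followed Cdkn1a most closely across the 18 libraries (Pearson r = 0.896). Next came Smarcc2, a chromatin remodelling subunit (0.887), and Polk, a translesion DNA polymerase (0.860). In the lung sets Mdm2 was at 250.2, 279 and 156 CPM in the knockdowns of the first 42-3 set, the second 42-3 set and 6-2, against 72.1, 99.5 and 79.5 CPM in their NT controls. In 13-2 it was at 394 CPM with shRNA 1 against 97.3 CPM, in the first 42-2 set at 139 against 48.6 CPM, and in the second 42-2 set at 96.5 CPM with shRNA 2 against 104 CPM. G45-2 held 81.5 and 80.6 CPM with shRNA 1 and shRNA 2 against 131 CPM, and 6-3 held 104 and 113 CPM against 102 CPM. Mdm2 was thus higher in the 5 sets with the highest Cdkn1a differences, all 3 lung sets among them, and lower beside Cdkn1a in G45-2. The libraries behind these correlations share lines and culture sets, so the coefficients are descriptions.

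**Figure D2:**
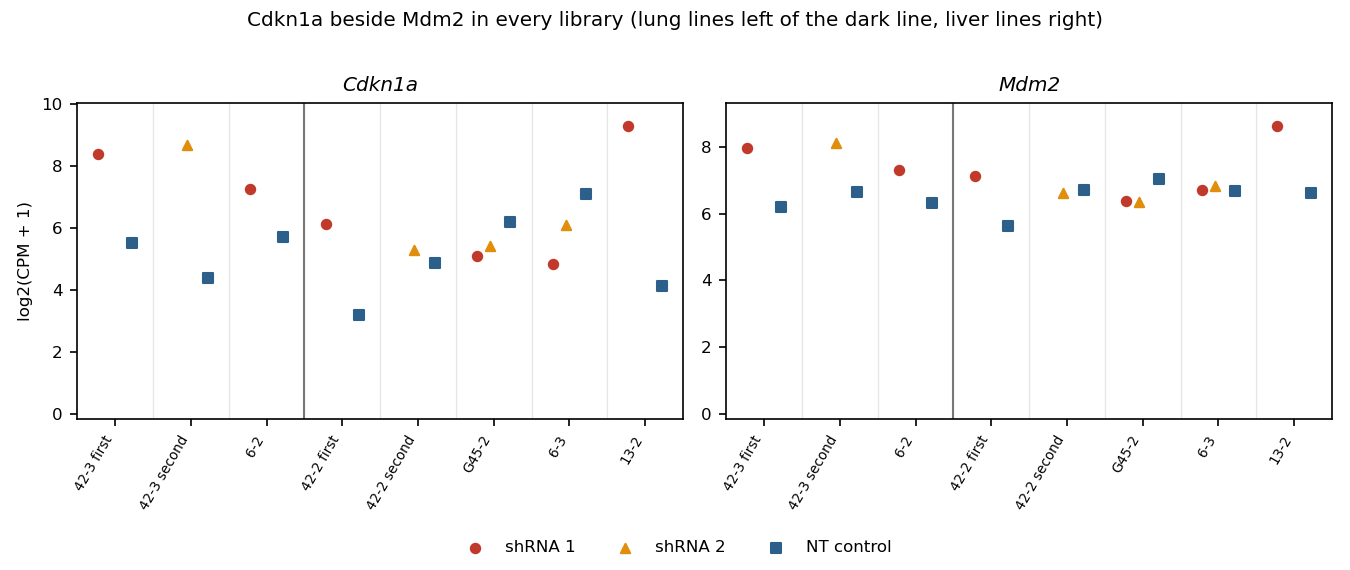
The panels plot log2(CPM + 1) of Cdkn1a and Mdm2 in all 18 libraries by culture set, knockdowns left of the NT control in each set. Both genes are above control in both 42-3 sets, 6-2, the first 42-2 set and 13-2, and both are below control in G45-2.

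Cdkn1b encodes p27, a Cip/Kip inhibitor of CDK2 that is controlled largely through protein turnover. In the lung lines it was at 32.99, 36.0 and 28.0 CPM in the knockdowns of the first 42-3 set, the second 42-3 set and 6-2, against 17.8, 5.25 and 12.2 CPM in their NT controls. The liver lines showed no common direction, with 23.1 CPM in the first 42-2 knockdown against 38.0 CPM and 34.0 CPM in the second against 15.4 CPM. G45-2 held 24.5 and 25.9 CPM against 20.05 CPM, 6-3 held 41.2 and 21.6 CPM against 31.0 CPM, and 13-2 held 30.0 CPM against 30.3 CPM. The 3 lung knockdowns lay above the 3 lung controls, whereas the liver libraries overlapped. Means were 29.8 ± 6.28 CPM in knockdowns (SD, n = 10) and 21.3 ± 11.0 CPM in NT controls (n = 8). The log2 change was 0.64 (SE 0.32, limma adjusted p = 0.327), 0.14 without the 3 lung sets and 0.43 without all 5 (adjusted p = 0.864 and 0.647). The genes most like it over the 18 libraries were Tbc1d2b (r = 0.874), Zfp629 (0.831) and Mta3, a subunit of a deacetylase complex (0.824). Among NT controls alone, Cdkn1b was lower in lung lines, with line means of 11.5 and 12.2 CPM against 20.05 to 31.0 CPM in the 4 liver lines. That lung minus liver difference was -1.17 (SE 0.33) on line means and did not pass (limma adjusted p = 0.230).

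Protein turnover of p27 and p21 runs through the ubiquitin ligases SCF-Skp2 and CRL4-Cdt2 and their cofactors. Beside the counts of list genes at an unadjusted p of 0.05, the share over all genes was 7.05% higher and 10.1% lower, as above, for this and the later lists. Of 11 such genes tested, 0 passed for knockdown, with 3 higher and 2 lower at an unadjusted p of 0.05 and a median of 0.17. Skp1a, the SCF adaptor, averaged 359 ± 61.9 CPM in knockdowns and 554 ± 111 CPM in NT controls (SD, n = 10 and 8), lower in 8 of 8 sets (log2 change -0.58, SE 0.15, limma adjusted p = 0.119). The CRL4 receptor Dtl and its partner Pcna had changes of 0.79 (SE 0.33) and 0.82 (SE 0.27), which did not pass (limma adjusted p = 0.251 and 0.172).

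Cdkn1c encodes p57, the imprinted Cip/Kip inhibitor, and was scarce, at or above 1 CPM in 6 of 18 libraries. In the lung lines it was at 0.313, 0.119 and 0.410 CPM in the knockdowns of the first 42-3 set, the second 42-3 set and 6-2 (8, 1 and 8 reads), against 3.83, 2.56 and 3.82 CPM in their NT controls (52, 38 and 57 reads). G45-2 held 2.29 CPM with shRNA 1 and 0.993 CPM with shRNA 2 against 2.59 CPM, and 6-3 held 0.795 and 0.166 CPM against 2.93 CPM. Both 42-2 sets and 13-2 were below 1 CPM throughout, and 13-2 had 2 reads in the knockdown and 0 in the NT control. Cdkn1c was lower in 7 of 8 sets, and the groups overlapped. It averaged 0.564 ± 0.676 CPM in knockdowns (SD, n = 10) and 2.08 ± 1.56 CPM in NT controls (n = 8). Its fitted log2 change was -1.002 (SE 0.29), with a limma adjusted p of 0.143. It did not reach the filter on low values without the 3 lung sets or without all 5. The 3 genes that followed it most closely over the 18 libraries were Slc17a4 (r = 0.913), Tmigd1 (0.913) and Kcnq1 (0.879), a potassium channel gene of the same imprinted domain.

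Cdkn2a encodes p16Ink4a and, from another first exon and reading frame, p19Arf, which binds Mdm2. The table has 1 row for the gene, so the p16Ink4a and p19Arf transcripts cannot be told apart. In the second 42-3 set Cdkn2a had 0 reads with shRNA 2 against 64.5 CPM (957 reads) in the NT control, which is at least 181-fold lower with 3 reads as the floor. In 6-2 it was at 0.461 CPM with shRNA 1 (9 reads) against 170 CPM, and in 13-2 at 0.0706 CPM (1 read) against 110 CPM. It was at 20.2 CPM in the first 42-3 knockdown against 107 CPM, and at 5.23 CPM in the first 42-2 knockdown against 134 CPM. G45-2 held 53.7 CPM with shRNA 1 and 67.5 CPM with shRNA 2 against 113 CPM, and 6-3 held 30.2 and 39.5 CPM against 60.6 CPM. The second 42-2 set alone was higher, at 120.7 CPM with shRNA 2 against 91.0 CPM. Thus 8 of 10 knockdown libraries lay below every NT control, and the NT controls themselves spanned only 60.6 to 170 CPM.

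Cdkn2b encodes p15INK4b, the INK4 inhibitor that TGF-beta induces in epithelial cells. It had 0 reads in the second 42-3 knockdown against 101 CPM (1504 reads) in the NT control and 0 reads in the 6-2 knockdown against 238 CPM (3544 reads), at least 284-fold and at least 1548-fold lower with 3 reads as the floor. It had 1 read in the 13-2 knockdown (0.0706 CPM) against 211 CPM. It was at 31.5 CPM in the first 42-3 knockdown against 191 CPM and at 8.43 CPM in the first 42-2 knockdown against 174 CPM. G45-2 held 105 and 126 CPM with shRNA 1 and shRNA 2 against 229 CPM, 6-3 held 40.3 and 39.8 CPM against 104 CPM, and the second 42-2 set 85.4 CPM against 81.8 CPM. Its order over the sets was close to that of Cdkn2a, with the second 42-2 set again the only one not lower. In RefSeq the noncoding gene Gm12610, also called ANRIL, overlaps Cdkn2b, and with no stated strand setting for the counting, reads of the pair cannot be told apart.

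Cdkn2a averaged 33.8 ± 38.8 CPM in knockdowns (SD, n = 10) and 106 ± 35.9 CPM in NT controls (n = 8), and Cdkn2b averaged 43.7 ± 46.5 CPM in knockdowns and 166 ± 61.9 CPM in NT controls. The log2 changes were -3.09 (SE 0.78, limma adjusted p = 0.112) for Cdkn2a and -3.55 (SE 0.85, limma adjusted p = 0.109) for Cdkn2b. Without the 3 lung sets they were -2.12 and -2.47 (adjusted p = 0.253 and 0.229). Without all 5 sets they were -0.58 and -0.88 (adjusted p = 0.458 and 0.382), from 2 lines with both hairpins and the second 42-2 set. That rule takes out sets for low Cdkn2a and Cdkn2b, so the smaller changes are partly set by it. The fitted changes with both hairpins were negative, at -3.80 (SE 0.90) with shRNA 1 and -2.38 (SE 1.07) with shRNA 2 for Cdkn2a. For Cdkn2b they were -4.20 (SE 0.98) and -2.90 (SE 1.17). These fitted changes did not pass (limma adjusted p = 0.142 for both genes with shRNA 1, and 0.766 and 0.754 with shRNA 2). The Cdkn2a differences of single shRNA 2 libraries were -6.03 (second 42-3), -0.73 (G45-2), -0.60 (6-3) and 0.40 (second 42-2). For Cdkn2b, in the same order, they were -6.68, -0.86, -1.37 and 0.06. The second 42-3 set is among those of differing Y-linked transcripts.

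Absence, set as a level below 1 CPM, was found for Cdkn2a in 3 libraries and for Cdkn2b in the same 3. These were the second 42-3 shRNA 2, the 6-2 shRNA 1 and the 13-2 shRNA 1 libraries, from 3 lines, and 0 NT controls were below 1 CPM for either gene. Relative to its NT control the 13-2 knockdown held 0.0644% of Cdkn2a (exact 95% interval 0.00163% to 0.359%, counting error only) and 0.0335% of Cdkn2b (0.000848% to 0.187%). The 6-2 knockdown held 0.270% of Cdkn2a (0.124% to 0.514%). The next lowest were the first 42-2 knockdown, with 3.90% and 4.83%, and the first 42-3 knockdown, with 19.0% and 16.6%. The first 42-3 knockdown, labelled as the same line as the second, was not below 1 CPM for either gene. These 42-3 knockdowns also differed in Xist, at 197 CPM in the first and 0.119 CPM in the second. A difference between libraries and one between lines thus cannot be told apart in 42-3. In bulk libraries fewer cells with a transcript and less RNA per cell cannot be told apart, and RNA alone does not separate loss of a gene from lack of its transcription.

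Cdkn2a and Cdkn2b varied together. Over the 18 libraries Pearson r between them was 0.987 on log2(CPM + 1), and each was the gene most like the other, ahead of the heparan sulfate proteoglycan gene Gpc2 (0.918 with Cdkn2a and 0.936 with Cdkn2b). The next in order were Rsad1 for Cdkn2a (0.911) and A030009H04Rik for Cdkn2b (0.902). Over the libraries Cdkn1a had a negative r, of -0.761 with Cdkn2a and -0.738 with Cdkn2b (Spearman rank correlation -0.612 and -0.528). By set, the signs were the same in G45-2, 6-3 and the second 42-2 set. There the differences were -0.93, -1.63 and 0.42 for Cdkn1a, -0.90, -0.79 and 0.40 for Cdkn2a, and -0.99, -1.36 and 0.06 for Cdkn2b. The signs were opposite in every other set, all of them sets of differing transcripts with Cdkn2a and Cdkn2b counted. The ratio of Cdkn2a to Cdkn2b was 0.511 to 1.41 (median 0.641) in the 7 knockdown libraries where both were above the floor and 0.493 to 1.11 (median 0.609) in NT controls. A knockdown level at 10% of the control or less, from a control of at least 10 CPM, was reached in 4 sets by both genes, which 0.588% of genes tested did in at least 4 sets.

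Neighbouring genes were read along the chromosome in the order that RefSeq gives for this region. Klhl9, a ubiquitin ligase adaptor on the far side of Mtap, was at 63.5 to 131 CPM in knockdowns and 72.7 to 123 CPM in NT controls, and held 70.6% to 109% of its own control in every set. Mtap, the methylthioadenosine phosphorylase gene next to Cdkn2a, was at 4.40 CPM in the second 42-3 knockdown against 587 CPM (0.750% of control), 19.7 CPM in the 13-2 knockdown against 528 CPM (3.74%) and 36.1 CPM in the first 42-3 knockdown against 456 CPM (7.92%). In 6-2, where Cdkn2b had 0 reads, Mtap was not low, at 348 CPM with shRNA 1 against 284 CPM. In the first 42-2 set it was 9.05-fold higher, at 816 CPM with shRNA 1 against 90.2 CPM. Dmrta1, a DMRT family transcription factor gene on the other side of Cdkn2b, reached at most 2.5 CPM in knockdowns and 8.46 CPM in NT controls. Dmrta1 was below its control in 7 of 8 sets, among them the 5 sets where Cdkn2b was lowest. It had 0 reads in the first 42-3 knockdown against 54, 0 in the second against 25, 1 in the 6-2 knockdown against 28 and 2 in the 13-2 knockdown against 117 in the NT control. The first 42-2 set had 0 reads against 8, and G45-2 had 47 and 27 reads against 49. The second 42-2 set, counted among the 7, had 1 read in each library and differed by depth alone, and 6-3 had 2 in each. The low values thus took in Mtap and Dmrta1 in both 42-3 sets and 13-2, and Dmrta1 but not Mtap in 6-2, and Klhl9 was not among them in any set. Farther out, Mllt3 was at 18.2 to 47.1 CPM in knockdowns and 27.7 to 70.9 CPM in NT controls, and Focad at 20.8 to 48.8 CPM and 15.7 to 41.3 CPM. Hacd4 was at 0 to 21.6 CPM in knockdowns and 0.134 to 9.69 CPM in NT controls, and Elavl2 at 0 to 14.2 CPM and 0.0671 to 1.78 CPM. In the knockdown fit none of the neighbours passed, with -1.60 on the log2 scale for Mtap (SE 0.85, limma adjusted p = 0.357), -0.54 without the 3 lung sets and -0.51 without all 5 (adjusted p = 0.798 and 0.436).

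**Figure D3:**
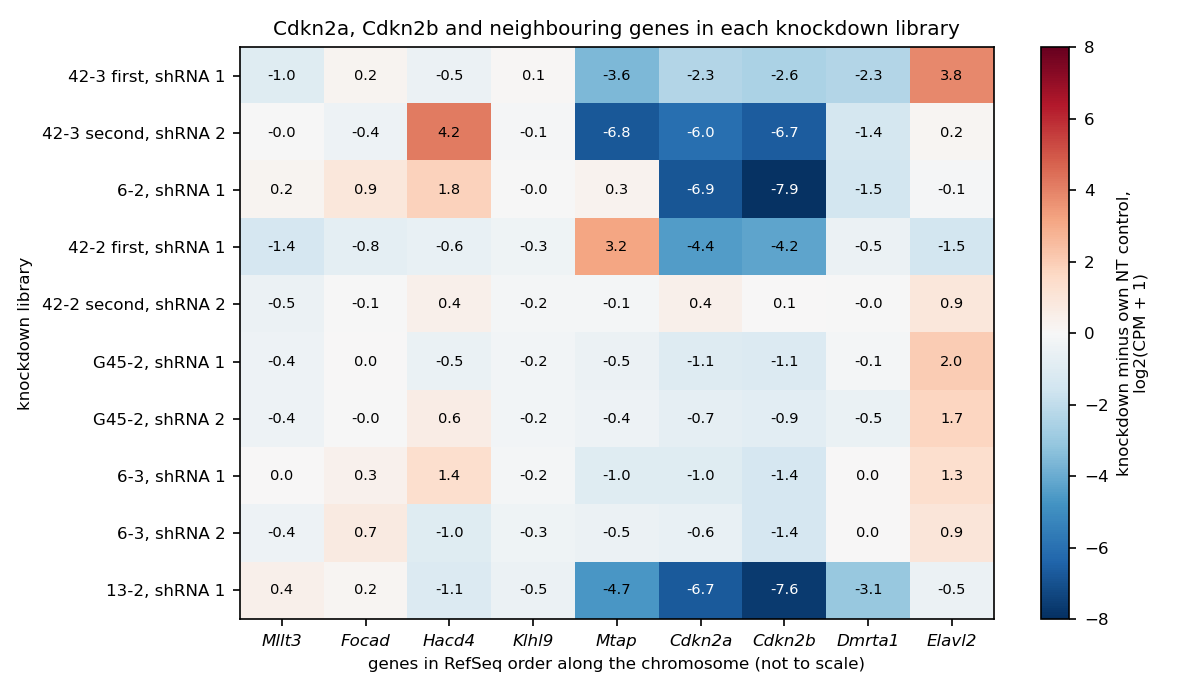
The grid gives the knockdown minus own NT control difference of log2(CPM + 1) for Cdkn2a, Cdkn2b and 7 neighbouring genes (columns, in RefSeq order) in the 10 knockdown libraries (rows), blue for lower and red for higher. Mtap is low together with Cdkn2a and Cdkn2b in both 42-3 sets and 13-2, and Klhl9 stays near 0 in every row.

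Of 14 repressors and activators of the Cdkn2a locus tested, 0 passed for knockdown in limma. At an unadjusted p of 0.05, 4 were higher and 2 lower, and 11 of 14 had a positive change (median 0.21). Bmi1, the polycomb subunit known for repressing Cdkn2a, was at 69.8 to 133 CPM in knockdowns and 39.3 to 69.4 CPM in NT controls, higher in 8 of 8 sets. Its log2 change was 0.95 (SE 0.15, limma adjusted p = 0.0512), and the level was higher in sets where Cdkn2a was near 0 and in the second 42-2 set, where Cdkn2a was not lower, at 114 CPM with shRNA 2 against 50.2 CPM. The polycomb genes Cbx7 (-0.84, SE 0.30) and Ezh2 (0.63, SE 0.25) had changes of opposite sign and did not pass (limma adjusted p = 0.197 and 0.225). Of 16 TGF-beta and FOXO genes, which feed into Cdkn2b, Cdkn1a and Cdkn1b, 0 passed. At an unadjusted p of 0.05, 1 was higher and 1 lower, with a median of -0.06 against -0.03 over all genes. In the lung minus liver interaction described below, 1 gene of this list passed, the FOXO factor Foxo3 (2.46, SE 0.44, limma adjusted p = 0.0432), which was singled out after its value was seen.

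Cdkn2c encodes p18INK4c, an inhibitor of CDK4 and CDK6. In the lung lines it was at 35.3, 62.8 and 83.4 CPM in the knockdowns of the first 42-3 set, the second 42-3 set and 6-2, against 18.9, 20.1 and 17.4 CPM in their NT controls. In the liver lines it was at 119 CPM in the first 42-2 knockdown against 45.3 CPM, 43.3 CPM in the second against 28.4 CPM, and 46.3 CPM in 13-2 against 18.7 CPM. G45-2 held 54.5 CPM with shRNA 1 and 59.0 CPM with shRNA 2 against 14.3 CPM, and 6-3 held 77.6 and 17.6 CPM against 12.7 CPM. Every knockdown library was above its own NT control, 7 of 10 were above all NT controls, and the groups overlapped through the high first 42-2 control and the low 6-3 shRNA 2 library. It was the only inhibitor with 1 direction in all 8 sets, as did 1.34% of genes tested upward and 2.43% downward, 3.77% in all.

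Cdkn2c averaged 59.9 ± 28.4 CPM in knockdowns (SD, n = 10) and 21.98 ± 10.5 CPM in NT controls (n = 8). The log2 change of 1.35 (SE 0.26) had the smallest p of the 8 genes and did not pass (limma adjusted p = 0.0820). It was 1.29 without the 3 lung sets and 1.54 without all 5 (adjusted p = 0.136 and 0.345), and 1.69 (SE 0.30) with shRNA 1 and 1.01 (SE 0.36) with shRNA 2 (limma adjusted p = 0.1105 and 0.715). Over the 18 libraries the gene most like it was Phf19, a polycomb-associated factor (r = 0.852), followed by the kinesin Kif1b (0.832) and the kinase inhibitor Camk2n2 (0.802). The correlation of Cdkn2c with Cdkn2a was -0.591 and with Cdkn2b -0.596, again as descriptions over libraries that share lines.

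Cdkn2d encodes p19INK4d and was near the lower end of detection, at or above 1 CPM in 8 of 18 libraries. It was at 2.47, 3.21 and 2.10 CPM in the lung knockdowns of the first 42-3 set, the second 42-3 set and 6-2 (63, 27 and 41 reads), against 0.957, 0.404 and 1.01 CPM in their NT controls (13, 6 and 15 reads). In 13-2 it was at 2.26 CPM with shRNA 1 (32 reads) against 0.217 CPM (3 reads). Both 42-2 sets and G45-2 lay between 0.523 and 1.03 CPM in knockdowns and between 0.593 and 1.00 CPM in NT controls, and 6-3 held 2.30 and 0.915 CPM against 0.750 CPM. Cdkn2d was higher in 7 of 8 sets and above every NT control in 6 knockdown libraries. It averaged 1.65 ± 0.921 CPM in knockdowns (SD, n = 10) and 0.695 ± 0.290 CPM in NT controls (n = 8). Its fitted log2 change was 0.59 (SE 0.26), with a limma adjusted p of 0.278. Without the 3 lung sets it was 0.37, and without all 5 it did not reach the filter. Its correlation with Cdkn1a over the 18 libraries was 0.718, and the genes most like it were Zdhhc2 (0.791), Foxf1a (0.778) and 6530418L21Rik (0.777).

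**Figure D4:**
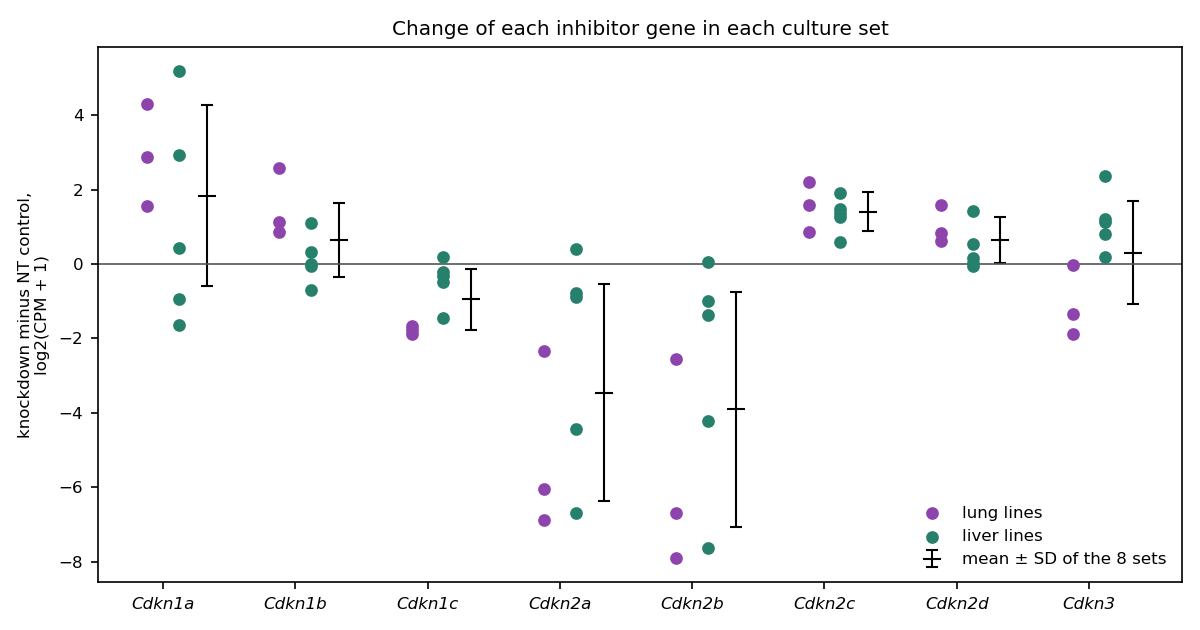
Points give the knockdown minus NT control difference of log2(CPM + 1) of each inhibitor in each of the 8 culture sets, purple for the 3 lung sets and green for the 5 liver sets, with both hairpins averaged in G45-2 and 6-3, and black bars give the mean and SD of the 8 sets. All 8 points of Cdkn2c are above 0, and the lung and liver points of Cdkn3 do not overlap.

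Cdkn3 encodes a phosphatase that removes the activating phosphate from CDK2 and CDK1 and is itself made mostly in dividing cells. In the lung lines it was at 7.87, 19.0 and 15.9 CPM in the knockdowns of the first 42-3 set, the second 42-3 set and 6-2, against 31.9, 19.3 and 41.7 CPM in their NT controls. In the liver lines it was at 49.2 CPM in the first 42-2 knockdown against 8.80 CPM, 21.7 CPM in the second against 18.8 CPM, and 13.6 CPM in 13-2 against 5.28 CPM. G45-2 held 24.6 CPM with shRNA 1 and 25.2 CPM with shRNA 2 against 10.9 CPM, and 6-3 held 26.9 and 13.5 CPM against 10.5 CPM. Cdkn3 was lower in all 3 lung sets and higher in all 5 liver sets, a pattern of 0.696% of genes tested (the opposite pattern was that of 0.943%), and in the second 42-3 set the gap was 0.02 on the log2 scale. Pooled over sites the means were 21.7 ± 11.4 CPM in knockdowns (SD, n = 10) and 18.4 ± 12.6 CPM in NT controls (n = 8). Its fitted log2 change was 0.34 (SE 0.42), with a limma adjusted p of 0.723. It was 1.05 without the 3 lung sets and 0.83 without all 5 (adjusted p = 0.166 and 0.427).

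The lung minus liver difference in the knockdown change was tested as an interaction. For Cdkn3 it was -2.20 (SE 0.57), which did not pass (limma adjusted p = 0.0854). No inhibitor passed this test, in which limma called 0.503% of 12931 genes (0.255% higher and 0.247% lower in lung), and 3 of 8 were at an unadjusted p of 0.05, 1 higher and 2 lower in lung, against 9.16% and 10.5% of genes, 19.7% in all. The other two were Cdkn1b (1.39, SE 0.52) and Cdkn1c (-1.26, SE 0.49), with limma adjusted p values of 0.183 and 0.193. The edgeR test called 0 of 8 inhibitors, with 2 at an unadjusted p of 0.05, against 17.3% of genes in that test. For Cdkn2a and Cdkn2b the differences were -2.79 (SE 1.48) and -3.08 (SE 1.59) and did not pass (limma adjusted p = 0.323 and 0.308). All 3 lung sets hold libraries that differ in Y-linked transcripts, so in this comparison site and that difference cannot be told apart, and no fit was possible without those sets.

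Among NT controls, compared on line means, 0 of 7 inhibitors tested passed, where 0.0311% of 12863 genes did in limma, and 2 were at an unadjusted p of 0.05, 1 higher and 1 lower in lung, against 6.79% and 6.65% of genes, 13.4% in all. The edgeR test on the separate libraries also called 0 of 8, with 2 at an unadjusted p of 0.05, against 16.9% of 13111 genes. Cdkn3 was higher in lung lines, at 25.6 and 41.7 CPM against 5.28 to 13.8 CPM in the 4 liver lines, a difference of 1.67 (SE 0.44, limma adjusted p = 0.226). The other was Cdkn1b, described above. The NT controls also enter the interaction, so a site difference in them alone would give an interaction of the opposite sign. Cdkn3 and Cdkn1b had opposite signs in these comparisons, and the part of the NT controls was not tested. Cdkn2a and Cdkn2b were at like levels in NT controls of both sites, with line means of 85.5 and 170 CPM in lung lines against 60.6 to 113 CPM in liver lines for Cdkn2a, and 146 and 238 CPM against 104 to 229 CPM for Cdkn2b.

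Proliferation markers had the same sign of difference as Cdkn3 in 7 of 8 sets, 6-2 being the exception, and their part in the Cdkn3 levels was not tested. The proliferation marker Mki67 averaged 242 ± 84.0 CPM in knockdowns and 76.7 ± 32.5 CPM in NT controls (SD, n = 10 and 8), higher in 8 of 8 sets, and did not pass (log2 change 1.60, SE 0.28, limma adjusted p = 0.0692). It passed with no replicate block (adjusted p = 0.0242), with the cell line as the block (0.0404) and without the first 42-3 set (0.0341). The 18 proliferation markers, which do not include Cdkn3, had a median change by set of 2.19 and 0.20 in the first and second 42-2 sets, 1.09 in G45-2, 1.99 in 6-3 and 1.69 in 13-2. In the lung sets the medians were -1.13 in the first 42-3 set, -0.23 in the second and 0.95 in 6-2, where Cdkn3 itself had a difference of -1.34. Over the 18 libraries the genes most like Cdkn3 were Dscc1, a cohesion factor (r = 0.883), Dtymk, the thymidylate kinase (0.865), and Cdca3, a mitotic ubiquitin ligase adaptor (0.864). On line means of NT controls, 18 of 18 proliferation markers were higher in lung (median 1.20), 9 at an unadjusted p of 0.05, against 6.79% of genes. The interaction subtracts the same NT controls, so it is not independent of this result. In it, 18 of 18 were lower in lung, 13 at an unadjusted p of 0.05, against 10.5% of genes. There 1 marker, the mitotic activator Cdc20, passed (-2.13, SE 0.37, limma adjusted p = 0.0410), which was singled out after its value was seen. Without lines 6-3 and 13-2, whose library codes differ between knockdown and NT control, 0 genes passed the interaction, so that this call and that of Foxo3 were lost.

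The kinases, cyclins and pocket proteins on which the inhibitors act were listed by role. Of 12 G1 cyclins and kinases, 0 passed for knockdown, and 3 were higher and 2 lower at an unadjusted p of 0.05 (median 0.27). Ccne2, the S phase-entry cyclin, averaged 51.6 ± 30.6 CPM in knockdowns and 19.2 ± 11.8 CPM in NT controls (SD, n = 10 and 8). Cdk6, a target of the INK4 proteins, averaged 92.9 ± 71.3 CPM in knockdowns and 47.1 ± 11.1 CPM in NT controls, with the highest levels in G45-2, at 258 CPM with shRNA 1 and 157 CPM with shRNA 2 against 56.7 CPM. Ccnd2, a D-type cyclin, averaged 197 ± 158 CPM in knockdowns and 291 ± 146 CPM in NT controls. None of the 3 passed (limma adjusted p = 0.157 for Ccne2, 0.278 for Cdk6 and 0.228 for Ccnd2).

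Of 11 S and M phase cyclins and CDK1 regulators, 0 passed, 7 were higher and 0 lower at an unadjusted p of 0.05, and the median was 0.88. Wee1, the kinase that inhibits CDK1, had a log2 change of 1.13 (SE 0.29), and Cdc25b, the phosphatase that opposes it, one of 0.70 (SE 0.22), and neither passed (limma adjusted p = 0.119 and 0.169). Of 16 retinoblastoma and E2F genes, 0 passed, 8 were higher and 0 lower at an unadjusted p of 0.05, and the median was 0.48. The pocket protein gene Rbl1 averaged 83.5 ± 28.4 CPM in knockdowns and 39.8 ± 16.4 CPM in NT controls, and the E2F family repressor E2f7 averaged 56.7 ± 26.2 CPM in knockdowns and 18.8 ± 13.5 CPM in NT controls (SD, n = 10 and 8). Both were higher in 7 of 8 sets and did not pass (limma adjusted p = 0.111 and 0.119). Of the epithelial markers 10 of 10 had a negative fitted change under knockdown (median -1.19), 0 passed and 4 were lower at an unadjusted p of 0.05, and their part in the inhibitor levels was not tested.

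The lists were also counted without the sets of differing transcripts, where limma called 0 genes of each list. At an unadjusted p of 0.05, the S and M phase list had 11 of 11 genes higher without the 3 lung sets and 9 of 11 without all 5, against 6.45% and 5.68% of all genes. The proliferation markers had 18 of 18 and 16 of 18 higher, against 12 of 18 over all sets. The retinoblastoma and E2F list had 9 and 4 of 16 higher, and the turnover list 4 and 3 of 11 higher and 1 and 0 lower. The G1 list had 2 and 0 of 12 higher. The list of Cdkn2a locus regulators had 4 and 2 of 14 higher and 2 and 1 lower. The TGF-beta and FOXO list had 1 of 16 higher in each, and 4 and 2 lower. Of 9 epithelial markers tested, 3 were lower in each, against 8.46% and 5.53% of all genes. By gene, Mki67 had a change of 1.85 without the 3 lung sets and 1.49 without all 5, Bmi1 one of 0.91 and 1.078, and Skp1a one of -0.58 and -0.49, and none passed (limma adjusted p of 0.0650 and 0.299 for Mki67, 0.0996 and 0.299 for Bmi1, and 0.227 and 0.466 for Skp1a). For Rbl1 the changes were 1.38 and 1.33 and for E2f7 2.22 and 1.70, which did not pass either (limma adjusted p of 0.0787 and 0.343, and 0.152 and 0.448).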

How the data were processed

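The authors deposited 1 table of CPM (reads per gene scaled to each library) for 18 mouse RNA-seq libraries made with a TruSeq kit from 1.3 µg of total RNA, per the labels' protocols. Per the submitters' processing notes the build was mm9. The sources used here name no aligner, counter, annotation or filter. RefSeq sequences and gene order are of another build, GRCm38.p6, and were matched by symbol, so no coordinates were converted.

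CPM values were whole multiples of 1 read in every library (100% whole within 0.01 reads), which gave the depths and the recovered reads. Genes that reached 1 CPM in 4 or more libraries were fitted on log2(CPM + 1) by limma 3.58.1 in R 4.3.3, using its trend option, a two-sided test and Benjamini-Hochberg adjustment over all genes at 0.05. This scale understates changes of low genes. The culture set was a block. The pairing comes from the cell line in the labels and, where a line has 2 NT controls, the library code. Deviations of knockdowns from their group mean correlated with those of their own NT controls at -0.36 to 0.70 (median 0.02, 4 of 10 over 0.1). The knockdown change is the mean of both hairpin effects, the interaction adds a term for lung, and NT controls were compared on line means. edgeR 4.0.16 (quasi-likelihood) on the recovered reads was an alternative. The tests were tried on simulated data. Intervals and floors (3 reads) cover counting error only. Genes most like an inhibitor are the 3 of highest Pearson r over 18 libraries, and of each gene list the 3 of smallest p, or fewer, are named. Cdc20 and the per-set values were chosen after seeing them. The members, lists and rules were chosen with earlier results of these data known. Some alleles and genes are not reported here.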

Additional observations from a re-analysis of the deposited data

Results flagged for a closer look

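Among the 4 libraries of the shRNA 2 group, Cdkn2d was at 3.21 CPM (27 reads) in the second 42-3 set, the only lung library of the group. The liver libraries of the group lay between 0.915 and 1.03 CPM. With shRNA 1, the lung knockdowns held 2.47 CPM (first 42-3 set) and 2.10 CPM (6-2). Within the shRNA 2 group the gap to the next library was 0.926 of the group's range, where 0.829 marks an outlier among 4 samples. It was 1 of 32 groups of values examined in this way, and chance marks about 1 in 20.

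The knockdown change of Cdkn3 differed between sites by -2.20 (lung minus liver, log2 scale), with a lower level in all 3 lung sets and a higher level in all 5 liver sets. The interaction did not pass over all genes (limma adjusted p = 0.0854), and its range on leaving out each set in turn was -2.73 to -1.80. It is not independent of the site comparison of NT controls, in which Cdkn3 was higher in lung lines.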

How the results depend on the processing

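Over 394 refits of single inhibitors, 381 kept direction and side of the threshold and 13 reversed, and no inhibitor passed in any of them. Cdkn1a under knockdown reversed to -0.95 without the 5 sets of differing transcripts. Without lines 6-3 and 13-2, whose library codes differ, the knockdown changes kept their direction. They were 1.71 for Cdkn1a, -3.14 for Cdkn2a, -3.48 for Cdkn2b and 1.44 for Cdkn2c (limma adjusted p = 0.396, 0.330, 0.330 and 0.240). Between sites in NT controls, Cdkn1a was -0.03 and reversed to 0.015 with median-ratio rescaling, 0.034 with quantile normalization and 0.105 with separate libraries, with a range of -0.47 to 0.54 on leaving out each line. Cdkn2c reversed to 0.018 with median-ratio rescaling (range -0.20 to 0.27). On leaving out line 6-2, Cdkn2a and Cdkn2b had their lowest values, -0.20 and -0.17 (highest 0.83 and 0.60), and without set 6-2 the Cdkn2c interaction was -0.13 (highest 0.53). The cause was not tested.

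Of all genes, 5 passed for knockdown. The count was 84 with no replicate block, 51 with the cell line as the block, and 0 without a filter, with edgeR, without the 5 sets or without lines 6-3 and 13-2. Leaving out each set gave 0 to 8. For shRNA 1 the count of 0 became 10 with no replicate block, 2 with the line block and 1 without the 3 lung sets (0 to 2 on leaving out each set). The interaction count of 65 became 4 with no replicate block, 13 with edgeR and 0 without lines 6-3 and 13-2 (23 to 122). The site count of 4 became 2 at a pseudocount of 0.5, 19 at a CPM of at least 5, 2 with quantile normalization, 1 with edgeR and 9 with separate libraries (0 to 177). The replicate block changed no call of an inhibitor. The interaction could not be fitted without the 3 lung sets. Cdkn1c and Cdkn2d, at 0 to 63 reads, are limited by depth.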
